A study of Mus musculus with 10 samples.

Results

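The genes described here are the nuclear-encoded subunits of the oxidative phosphorylation (OXPHOS) system of mitochondria, complexes I to V, with the Ndufaf assembly factors of complex I that share their name prefix. They were taken by symbol: every protein-coding gene starting with Nduf, Uqcr, Atp5, Cox4, Cox5, Cox6, Cox7 or Cox8, plus Sdha, Sdhb, Sdhc and Sdhd. The rule gave 96 genes out of the 32903 to which transcripts were assigned: 41 of complex I, 4 of complex II, 8 of complex III, 18 of complex IV, 17 of complex V and 8 Ndufaf assembly factors. It left out 19 pseudogenes. Of the 96 genes, 94 had a transcript in the table and 90 had enough counts to be tested. Of the other 4 in the table, Ndufb4b had 0 to 5 counts per library, the testis and heart isoforms Cox7b2 and Cox8b had 0 or 1, and Cox8c had 0 in every library, which allows up to 3 counts per library.

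RNA was sequenced from male preadipocytes, the precursor cells of fat, of iSAT (inguinal subcutaneous adipose tissue) with the genotype WT C57 BL6. The cells of 5 libraries received DMSO, the vehicle, and those of 5 libraries received BPS (bisphenol S, an analogue of bisphenol A) at 2.5 uM in DMSO. No label says whether replicates were separate animals, cultures or dishes, so the p-values measure only the spread between these libraries, which may be technical. The library codes run from the DMSO to the BPS libraries, so a batch in that order and the treatment cannot be told apart. Total estimated counts were 37920689 to 42717227 per library. All 14 preadipocyte markers were tested, with Pdgfra at 904 ± 14.4 CPM (assigned counts scaled to a common depth with TMM factors) in DMSO and 863 ± 22.9 in BPS (SD, n = 5 each, edgeR adjusted p = 0.0777). The 3 called by edgeR (background 4.88% of all genes) were all higher in BPS: Cd34 (45.2 ± 1.56 and 54.9 ± 1.89 CPM), Thy1 (848 ± 7.33 and 968 ± 40.1) and Itgb1 (1610 ± 30.4 and 1701 ± 24.3). The log2 fold changes of the 14 went in both directions, from -0.2041 to 0.2783, with a median of 0.0076. The adipocyte markers Lep and Cidea had 0 counts and Adipoq 0 to 3 per library. Other genes of that list were expressed: 3 of its 10 had enough counts to be tested. The 10 summed to 53.64 to 62.41 CPM in DMSO and 53.77 to 61.19 in BPS. Acta2, a smooth muscle actin in the mural cell list, rose from 1037 ± 29.3 to 1339 ± 41.0 CPM, and made up most of the summed level of the 8 mural genes, 1075 to 1151 CPM in DMSO and 1380 to 1489 in BPS. The other 7 summed to 78.4 to 83.8 and 86.4 to 100.1 CPM, also without overlap. Of the 8, edgeR called Acta2, Mcam and Cspg4, all higher (background 4.88% of all genes). The log2 fold changes of the 8 were all above 0, from 0.0441 to 0.3688, with a median of 0.1831. The part of these marker differences in the results here was not tested. In bulk RNA, fewer cells of a type and less RNA per cell cannot be told apart.

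OXPHOS moves electrons from NADH and succinate through complexes I and II to ubiquinone, then through complex III and cytochrome c to complex IV, which reduces oxygen. Complexes I, III and IV pump protons across the inner membrane, and complex V, ATP synthase, uses the resulting gradient to make ATP. Most subunits are encoded in the nucleus and imported, while a few core subunits are encoded in mitochondrial DNA. The mitochondrially encoded subunits are not analysed here, and transcript counts give no value for protein or respiration.

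None of the 90 tested genes passed the test of BPS against DMSO. By the quasi-likelihood test of edgeR, adjusted by Benjamini-Hochberg over 14597 genes at a threshold of 0.05, 0 were called, where 4.88% of all genes were. DESeq2 also called 0 of 90 (background 7.2%) and limma-voom called 0 of 90 (background 4.76%). At an unadjusted p under 0.05, edgeR gave 8 of 90 genes, 5 higher and 3 lower, a share of 8.89% against 18.8% of all genes. The values of the 5 BPS libraries did not overlap those of the 5 DMSO libraries in 3 genes, Cox4i1, Cox5a and Atp5g1, a share of 3.33% against 6.9% of all genes. The lowest adjusted p by edgeR was 0.0922, for Cox4i1.

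The intervals were narrow, so the comparison bounds the difference between these groups of libraries for most genes. It does not bound an effect of BPS, because a batch in library order cannot be told apart from it and replicates may be technical. The 95% interval of the fold change lay within 1.1-fold in either direction for 72 of 90 genes and within 1.5-fold for 87. The median of the smallest log2 change that would have been called was 0.108, or 7.78%. The median log2 fold change was 0.0045 against 0.0004 over all genes, with 53 genes above 0 and 37 below. The median absolute log2 fold change was 0.0209 against 0.0562 over all genes. Among genes of at least 20 CPM it was 0.0177 for 75 members against 0.0365 for 7327 genes, of which 552 were called by edgeR. Estimates beyond 1.1-fold came from Ndufb2, Ndufa13, Cox4i2, Cox6a2, Cox7a1 and Ndufaf5, which all had means under 6 CPM over the 10 libraries.

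**Figure D1:**
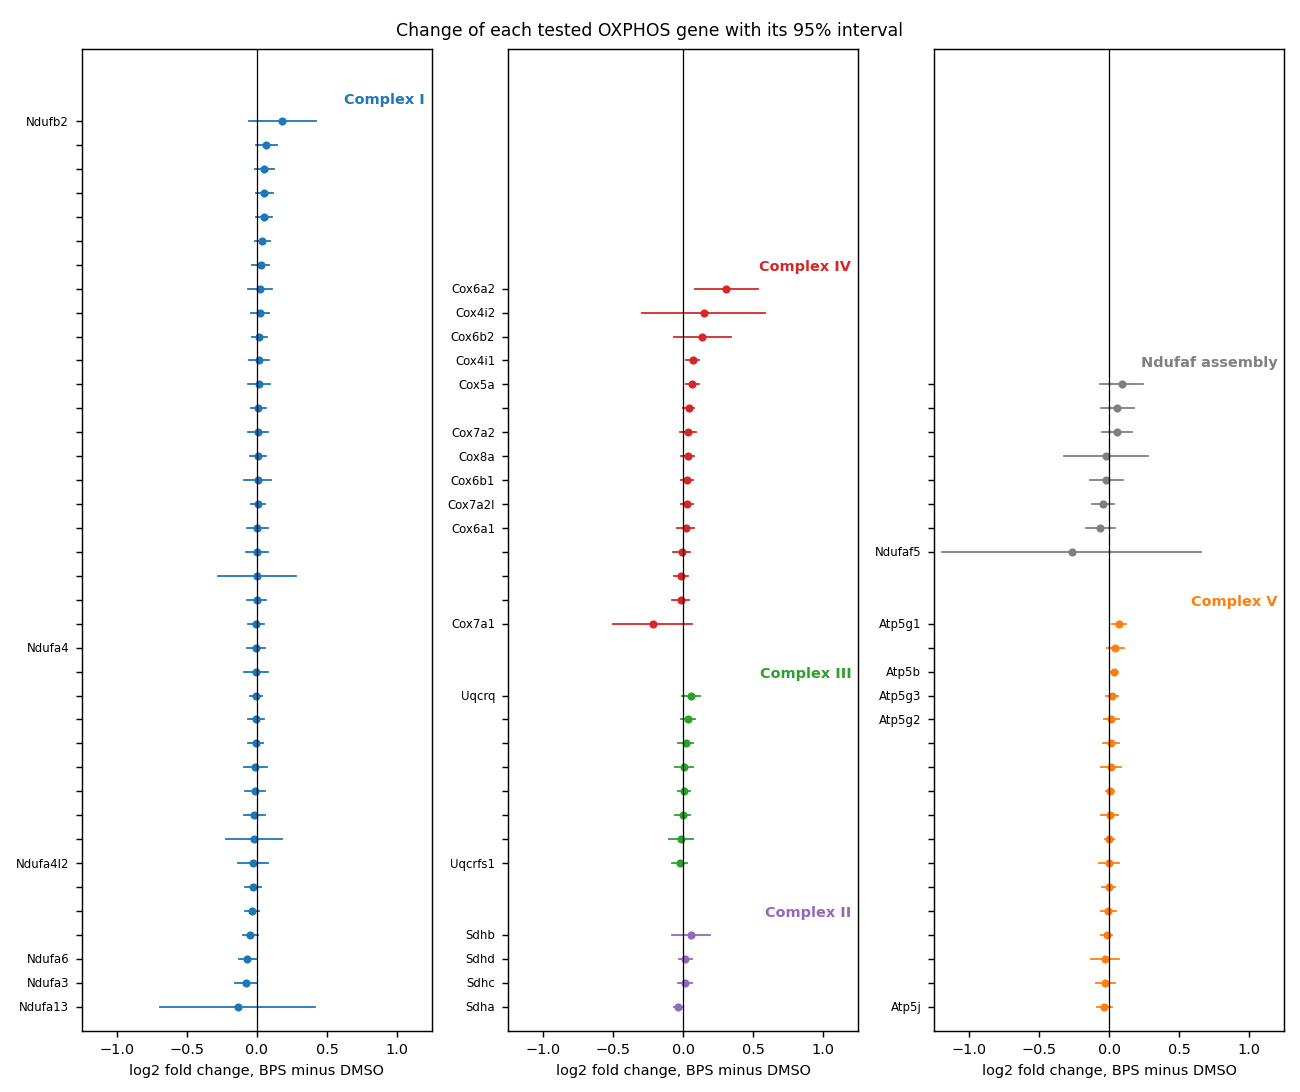
Points give the log2 fold change (BPS minus DMSO, horizontal axis) of each of the 90 tested genes and bars its 95% interval, grouped by complex and ordered by estimate, with labels for genes of the naming rule and others described in the text. Most points lie close to 0 with narrow bars, and the wide bars belong to genes of low level such as Ndufa13, Cox4i2 and Ndufaf5.

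Summed over its genes, each complex had close to the same level in both groups. Complex I summed to 1636 ± 30.1 CPM in DMSO and 1636 ± 13.9 in BPS (SD, n = 5 each), a difference of 0.0488%. Complex II summed to 460 ± 6.20 and 458 ± 6.74 CPM. Complex III summed to 570 ± 6.76 and 575 ± 6.19 CPM. All of these sums overlapped between groups. Complex IV summed to 1063 ± 22.7 and 1086 ± 15.3 CPM, a difference of 2.12%, and complex V to 2784 ± 35.4 and 2811 ± 21.3 CPM, a difference of 0.988%. These sums overlapped too, and DMSO replicate 1 had the lowest DMSO value of complexes I, III, IV and V. The median log2 fold change was 0.003 in complex I, 0.0153 in II, 0.0043 in III, 0.0335 in IV and 0.0025 in V. With scaling by library size alone, the medians of complexes I, III and V turned to -0.0119, -0.0105 and -0.0123, while those of II and IV stayed above 0 at 0.0005 and 0.0187. Leaving out 1 library gave -0.0117 to 0.0117 in complex I, 0.0078 to 0.0238 in II, 0.0001 to 0.0131 in III, 0.014 to 0.0398 in IV and -0.0098 to 0.0065 in V. The lowest values of I and V came without DMSO replicate 1 and that of IV without BPS replicate 1.

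The level of complex IV transcripts relative to complex I differed between the groups without overlap. Of 4 ratios of a complex sum to the complex I sum, only that of complex IV did not overlap. It was 0.648, 0.647, 0.652, 0.654 and 0.650 in the DMSO libraries, and 0.671, 0.659, 0.665, 0.655 and 0.667 in the BPS libraries. The means were 0.650 ± 0.00289 and 0.664 ± 0.00619 (SD, n = 5 each), and every BPS library was above every DMSO library, by a narrow margin for BPS replicate 4. With Ndufa4, which carries a complex I name and is now counted with complex IV, moved to complex IV, the ratio was 0.734 ± 0.00234 and 0.748 ± 0.00845 and still did not overlap. Without Cox4i1 and Cox5a it was 0.486 ± 0.00259 and 0.492 ± 0.00587, and the groups overlapped. Both genes were higher in BPS without overlap in these data, so leaving them out was bound to narrow the difference. These checks were chosen after the ratio was seen, and no p is given for a ratio over chosen genes.

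**Figure D2:**
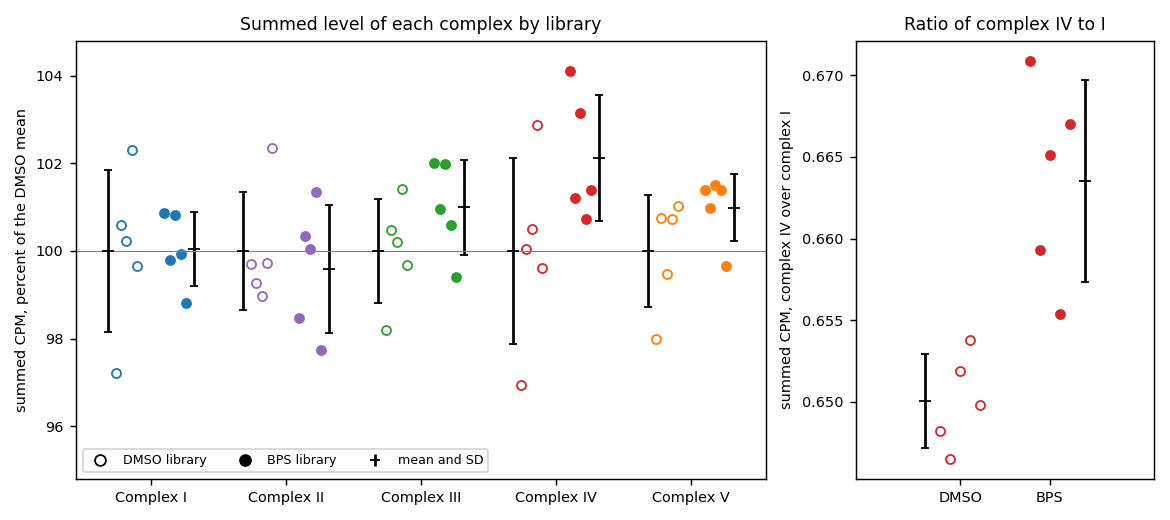
Left, the summed CPM of each complex in every library, as percent of the DMSO mean (vertical axis, not from 0), with open DMSO and filled BPS circles and bars for mean and SD. Right, the ratio of the complex IV sum to the complex I sum, where the BPS libraries sit between 0.655 and 0.671 and the DMSO libraries between 0.647 and 0.654.

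In complex I, which oxidises NADH, 0 of 38 tested genes were called by edgeR, 20 estimates were above 0 and 18 below. The interval lay within 1.1-fold for 32 of 38. Core subunits of the matrix arm, most of which carry flavin or iron-sulfur clusters, had estimates near 0. The log2 fold changes were 0.01 for Ndufv1, -0.05 for Ndufv2, -0.03 for Ndufs1, 0.05 for Ndufs3, 0.02 for Ndufs7 and 0.05 for Ndufs8. Their adjusted p by edgeR were 0.329 to 0.914.

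The 2 complex I genes with an unadjusted p under 0.05 were lower. Ndufa6, an accessory subunit, had 31.7, 31.1, 32.3, 31.98 and 32.1 CPM in the DMSO libraries and 29.2, 30.0, 32.1, 30.1 and 30.4 in the BPS libraries. BPS replicate 3 lay within the DMSO range and the other 4 below it. Its log2 fold change was -0.07 (edgeR adjusted p = 0.208, SE 0.03). Ndufa3, another accessory subunit, had 41.1, 43.9, 40.3, 44.3 and 39.3 CPM in DMSO and 38.8, 39.2, 40.9, 40.2 and 38.7 in BPS, and the groups overlapped. Its log2 fold change was -0.08 (edgeR adjusted p = 0.26, SE 0.04).

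The extreme estimates of complex I belonged to low genes. Ndufb2, an accessory subunit of the membrane arm, had a mean of 5.59 ± 0.749 CPM in DMSO and 6.34 ± 0.779 in BPS, with a log2 interval from -0.06 to 0.42. Ndufa13 had 0.896 ± 0.325 and 0.814 ± 0.170 CPM on 19 to 47 counts per library, with an interval from -0.69 to 0.41. Per kb of coding length it was at 2.07 CPM in DMSO, against a median of 81.8 for complex I, and the cause of that low level was not tested.

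Among the Ndufaf assembly factors, which help build complex I and are not part of it, 0 of 8 were called by edgeR, with 3 estimates above 0 and 5 below. Their levels were low, with a median of 15.8 CPM per coding kb in DMSO, and the interval lay within 1.1-fold for 1 of 8. Ndufaf5 was the least certain, with 3 to 22 counts per library and a log2 interval from -1.19 to 0.65.

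Complex II, succinate dehydrogenase, is the one complex made only of nuclear-encoded subunits and also a tricarboxylic acid cycle enzyme. Sdha, its flavoprotein, had 235, 237, 238, 238 and 240.2 CPM in the DMSO libraries and 231, 234, 230, 237 and 229 in the BPS libraries. Most BPS libraries were lower, and BPS replicate 4 lay within the DMSO range. The log2 fold change was -0.03 (edgeR adjusted p = 0.219, SE 0.01). Sdhb, the iron-sulfur subunit, had a log2 fold change of 0.06 (SE 0.06), with 0.0279 without DMSO replicate 4 and 0.1075 without DMSO replicate 5. The membrane anchors Sdhc and Sdhd had 0.01 (SE 0.02) and 0.02 (SE 0.02). Sdhc turned to -0.0026 without BPS replicate 3.

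Complex III, which passes electrons from ubiquinol to cytochrome c, had 0 of 8 genes called by edgeR and none at an unadjusted p under 0.05. All 8 intervals lay within 1.1-fold. Uqcrq, a small accessory subunit, had 66.1, 72.6, 72.9, 72.5 and 72.7 CPM in DMSO and 72.6, 75.6, 76.2, 72.2 and 74.3 in BPS. DMSO replicate 1 stood below all other libraries, and the groups overlapped. The log2 fold change was 0.06 (edgeR adjusted p = 0.343, SE 0.03), and 0.03 without DMSO replicate 1. Uqcrfs1, the Rieske iron-sulfur protein, had a log2 fold change of -0.02 (SE 0.02).

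Complex IV, cytochrome c oxidase, had 11 of 15 estimates above 0 and 4 below, against 50.2% above 0 over all genes. Such a lean was not particular to complex IV, with 3 of 4 above 0 in complex II, 5 of 8 in III and 11 of 17 in V. The counts were 20 of 38 in complex I and 3 of 8 among the Ndufaf assembly factors. By edgeR, 3 of the 15 complex IV genes had an unadjusted p under 0.05, all higher, against 18.8% of all genes. Cox4i1, the common isoform of subunit 4, had 184, 196, 195, 198 and 190.3 CPM in the DMSO libraries and 201, 204, 206, 198 and 201 in the BPS libraries. Every BPS library was above every DMSO library, with the lowest BPS value at 197.9 and the highest DMSO value at 197.6. The log2 fold change was 0.07 (SE 0.02, 95% interval 0.02 to 0.11), with an adjusted p of 0.0922 by edgeR, which missed the threshold. Cox5a, a subunit on the matrix side, had 73.0, 74.8, 76.4, 77.8 and 77.5 CPM in DMSO and 81.1, 78.6, 79.4, 78.7 and 79.2 in BPS, again without overlap. Its log2 fold change was 0.06 (edgeR adjusted p = 0.118, SE 0.02).

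Cox6a2, the striated muscle isoform of subunit 6a, had 1.90, 2.48, 2.31, 1.87 and 2.21 CPM in DMSO and 2.63, 2.44, 3.03, 2.59 and 2.63 in BPS, on 70 to 112 counts per library. BPS replicate 2 lay within the DMSO range and the other 4 above it. The log2 fold change was 0.31 (95% interval 0.08 to 0.53, edgeR adjusted p = 0.119, SE 0.10). The summed level of 8 skeletal muscle genes was 8.75 to 10.45 CPM in DMSO and 11.05 to 12.29 in BPS. Of the 5 tested, edgeR called only Acta1, the skeletal actin, which was higher (background 4.88% of all genes). By edgeR, 3 of the 5 had an unadjusted p under 0.05, against 18.8% of all genes. DESeq2 called 1 of the 5 (background 7.2%) and limma-voom 2 (background 4.76%). The log2 fold changes of the 5 went in both directions, from -0.3972 to 1.0516. The defining markers Ckm and Myh4 had 0 or 1 counts. The part of these muscle genes in the Cox6a2 value was not tested. Cox7a1, another muscle isoform, had 1.02 ± 0.118 and 0.873 ± 0.0928 CPM and a log2 fold change of -0.22 (SE 0.13).

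**Figure D3:**
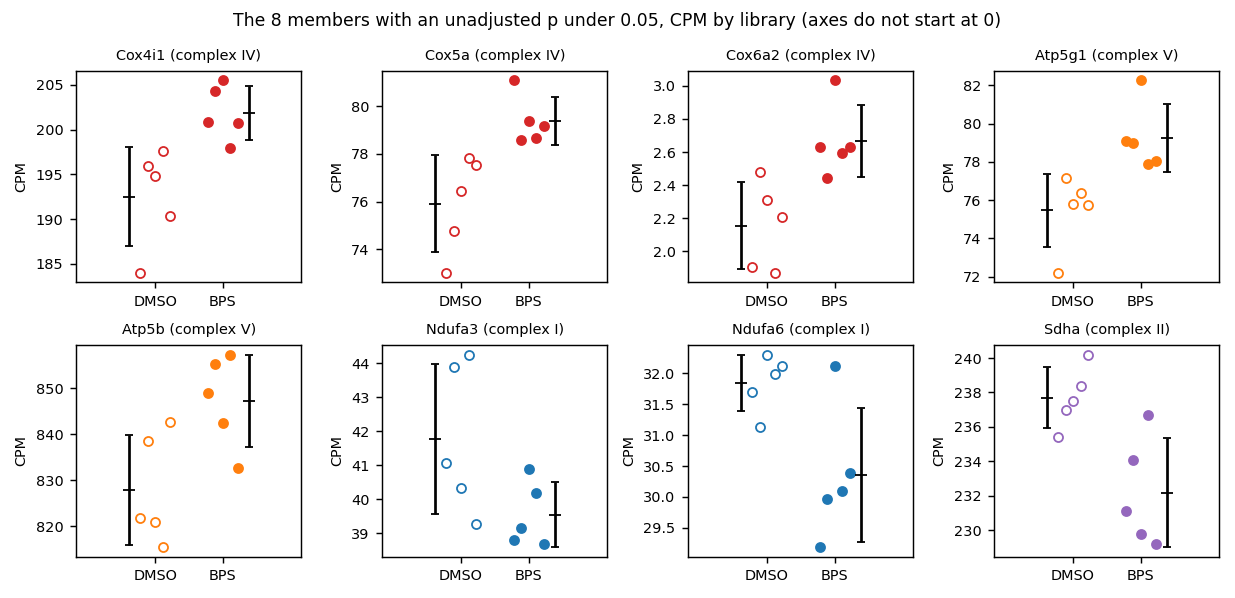
Each panel gives the CPM (vertical axis, not from 0) of 1 of the 8 genes with an unadjusted p under 0.05 in every library, open circles for DMSO and filled for BPS, with mean and SD. The groups are apart in Cox4i1, Cox5a and Atp5g1 and overlap in the other 5.

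The general isoforms exceeded the tissue-restricted ones in both groups, on the scale of CPM per kb of coding length. Cox4i1 was 254 ± 52.6 times Cox4i2, the isoform known for its response to low oxygen, in DMSO and 247 ± 67.1 times in BPS. Cox6a1 was 41.3 ± 5.34 and 33.5 ± 1.94 times Cox6a2, and Cox6b1 was 30.7 ± 2.79 and 28.6 ± 2.84 times the testis isoform Cox6b2. Cox7a2 was 64.1 ± 7.49 and 76.2 ± 7.72 times Cox7a1, and Cox7a2l, a supercomplex assembly factor, was 1.27 ± 0.0142 and 1.26 ± 0.0242 times Cox7a2. Cox8a had 98.0 ± 2.60 and 100.3 ± 1.66 CPM. Ndufa4 was 1.75 ± 0.0435 and 1.78 ± 0.210 times its paralogue Ndufa4l2. All of these ratios overlapped between groups.

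**Figure D4:**
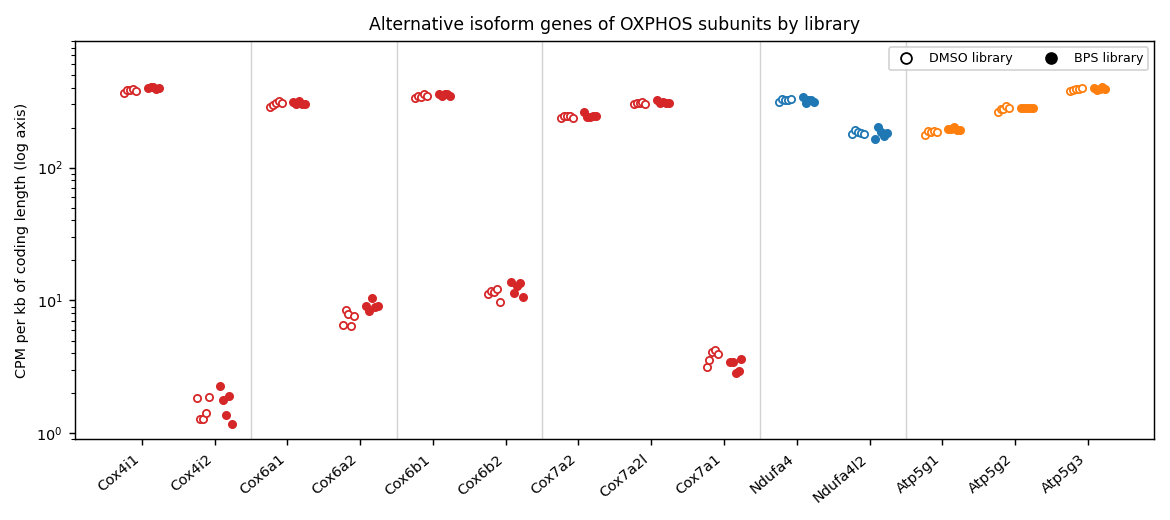
The level of each isoform gene (CPM per kb of coding length, log axis) in every library, open circles for DMSO and filled for BPS. The general isoforms of complex IV lie well above Cox4i2, Cox6a2, Cox6b2 and Cox7a1 in both groups.

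Complex V, ATP synthase, had 0 of 17 genes called by edgeR, and all 17 intervals lay within 1.1-fold. Atp5g1, which encodes the ring subunit c together with Atp5g2 and Atp5g3, had 72.2, 77.2, 75.8, 76.4 and 75.7 CPM in the DMSO libraries and 79.1, 79.0, 82.3, 77.9 and 78.1 in the BPS libraries. The groups did not overlap, and the log2 fold change was 0.07 (95% interval 0.02 to 0.12, edgeR adjusted p = 0.114, SE 0.02). Of the subunit c CPM per coding kb, Atp5g1 made up 21.7 ± 0.336% in DMSO and 22.4 ± 0.490% in BPS. Atp5g2 made up 32.6 ± 0.528% and 32.3 ± 0.283%, and Atp5g3 45.6 ± 0.469% and 45.3 ± 0.675%. These shares overlapped. They are not shares of transcript molecules, because coding length leaves out untranslated regions. The most counted transcript of known length had 4715 bases for Atp5g1, against 731 for Atp5g2 and 714 for Atp5g3. Atp5b, the catalytic beta subunit, had 828 ± 11.9 and 847 ± 10.02 CPM, a log2 fold change of 0.03 (edgeR adjusted p = 0.231, SE 0.01). Atp5a1, the alpha subunit, had 573 ± 9.09 and 575 ± 2.91 CPM. Atp5j, coupling factor 6, had the lowest estimate, -0.03 (SE 0.02).

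On the scale of CPM per coding kb in DMSO, the medians were 81.8 for complex I, 144.8 for II, 182.7 for III, 289.5 for IV and 232.8 for V. Atp5b was highest at 521.7, followed by Cox7c at 478.8 and Cox8a at 473.5, both small complex IV subunits. Coding length ignores untranslated regions, whose share of the transcript differs between genes. In complex II, Sdhc had 507 coding bases for a transcript of 3171, and Sdha 1992 for one of 2900. The order of the medians on the scale of transcript length was not tested.

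**Figure D5:**
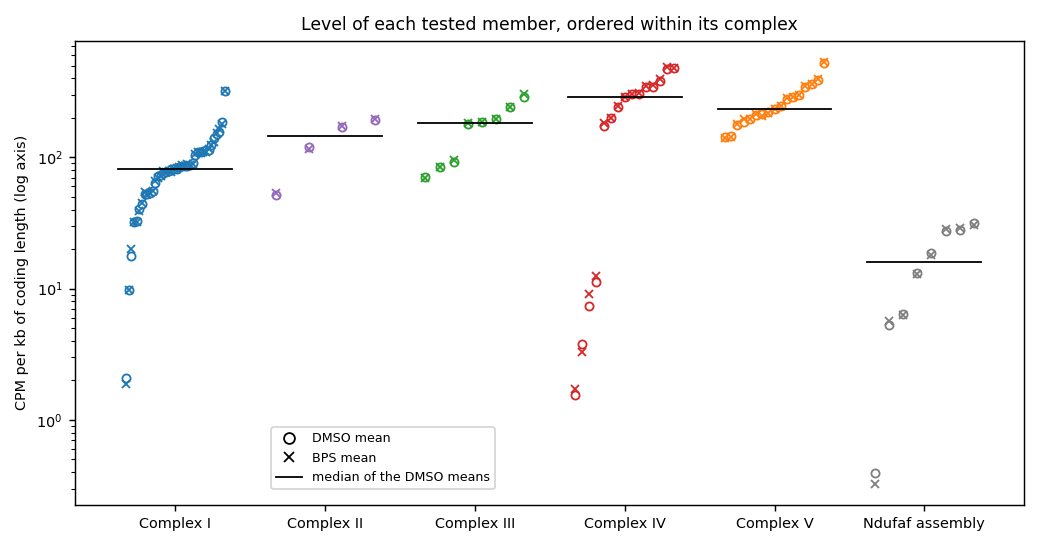
Each circle is the DMSO mean and each cross the BPS mean of 1 tested gene (CPM per kb of coding length, log axis), ordered within its complex, with a line at the DMSO median. Circles and crosses nearly coincide, and the lowest point of its complex is Ndufa13 in I, Cox4i2 in IV and Ndufaf5 among the assembly factors.

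Promoters of OXPHOS genes are known for sites of NRF1, a regulator of respiratory genes, of ETS factors such as GABPA, and of YY1. Of the 96 genes, 78 had promoters in RefSeq (GRCm38.p6), in 83 windows of 300 bases around the gene start. The NRF1 palindrome with its middle base left free, searched on both strands, was in 24.1% of these windows against 4.603% of 32851 windows. Its exact form, contained in the former, was in 8.43% against 0.971%. On both strands, the ETS letters CCGGAAGT were in 6.02% against 3.89%, and the YY1 letters AAGATGGCG in 9.64% against 1.40%. Any of them was in 37.3% of these windows against 9.245% of all windows, which were not matched for GC content. By gene, any was found in 30 of the 78. These were 12 of 35 of complex I, 2 of 3 of II and 3 of 5 of III. They also took in 2 of 13 of IV, 8 of 15 of V and 3 of 7 assembly factors. A match is only a match of letters. The stretches here, all on the minus strand, were chosen after the matches were seen, as 1 example each of complexes I, II, IV and V among the 8 genes with more than 1 match. The others were Ndufa5, Ndufs6, Uqcrc1 and Cox8a. Capitals mark the matches:
Sdha, chr13:74350241-74350345: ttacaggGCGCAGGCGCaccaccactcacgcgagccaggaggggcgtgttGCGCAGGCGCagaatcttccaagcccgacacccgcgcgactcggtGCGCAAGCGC
Ndufb4, chr16:37654378-37654453: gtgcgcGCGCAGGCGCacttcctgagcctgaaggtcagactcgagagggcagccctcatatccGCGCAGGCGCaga
Cox6a1, chr5:115349058-115349123: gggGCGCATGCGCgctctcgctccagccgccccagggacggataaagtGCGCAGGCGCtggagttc
Atp5h, chr11:115419949-115420064: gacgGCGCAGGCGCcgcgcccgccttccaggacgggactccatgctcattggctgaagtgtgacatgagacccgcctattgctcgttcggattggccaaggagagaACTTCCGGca
In these stretches Sdha has 3 NRF1-type matches upstream of its start, Ndufb4 and Cox6a1 have 2 each (Ndufb4 has 1 more farther upstream, not printed), and Atp5h, subunit d of ATP synthase, has 1 with an ETS match on the opposite strand.

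None of the listed regulators passed the test. Of 18 tested regulators of mitochondrial gene expression, 0 were called by edgeR, against 4.88% of all genes. An unadjusted p under 0.05 was found for 2, against 18.8% of all genes, and the lowest adjusted p by edgeR was 0.0694. Nrf1 is the only factor of the searched letters with values given here. It had 40.7 ± 0.810 CPM in DMSO and 39.6 ± 0.564 in BPS, a log2 fold change of -0.04 (edgeR adjusted p = 0.441, SE 0.02). Tfam, which packages and transcribes mitochondrial DNA, had a log2 fold change of 0.04 (edgeR adjusted p = 0.595, SE 0.03). Ppargc1a, a coactivator of mitochondrial biogenesis, had 5 to 15 counts per library and an interval from -0.75 to 0.54.

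Other mitochondrial genes gave 1 call. Of 47 tested assembly factors outside the rule, 22 electron carriers and ubiquinone reductases, 16 tricarboxylic acid cycle genes and 78 mitochondrial ribosome genes, edgeR called 0, with 3, 1, 1 and 5 at an unadjusted p under 0.05. Over all genes, edgeR called 4.88%, and 18.8% had an unadjusted p under 0.05. DESeq2 called 1 of the assembly factors and 0 of the other 3 lists (background 7.2%). The limma-voom test called 0 of all 4 (background 4.76%). Cyc1, the haem subunit of complex III that the rule does not take in, had a log2 fold change of 0.01 (SE 0.02), and Cycs, cytochrome c, 0.06 (edgeR adjusted p = 0.328, SE 0.03). Among 8 tested genes of uncoupling, nucleotide exchange and ATPase inhibition, edgeR called 1, and 3 had an unadjusted p under 0.05. Vdac2, an outer membrane channel for metabolites, had 244, 241, 246, 242 and 253 CPM in DMSO and 262, 264, 257, 263 and 254 in BPS, without overlap. It rose by 0.08 on the log2 scale (edgeR adjusted p = 0.0179, SE 0.02). The call was lost without DMSO replicate 2 (0.0514), DMSO replicate 4 (0.051) or BPS replicate 4 (0.0512) with the replicate number as a block (0.0908) and with the block and GC and length trends removed (0.113), all adjusted p by edgeR. The log2 fold change in these fits was 0.0788 to 0.0846. Ucp1, the uncoupling protein of brown fat, had 0 to 3 counts per library.

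Short genes as a class had slightly higher estimates. The median log2 fold change was 0.0152 over 971 tested genes with transcripts under 1 kb and -0.0068 over 4115 genes over 4 kb, and 58 of the 90 OXPHOS genes were under 1 kb. With each library's trend over GC content and length removed, the median of complex IV was 0.0265 and that of complex I -0.0014, and 0 of 90 genes were called by edgeR, with a lowest adjusted p of 0.0506.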

How the data were processed

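The deposited table holds estimated counts per RefSeq transcript, made by the authors with kallisto 0.42.4 per the submitters' processing notes. Its index, build and strand setting are not given in the sources used here, so reads shared by near-identical copies or antisense genes may be split. Accessions were matched without version to RefSeq genes (GRCm38.p6): 86722 of 107384 transcripts, 93.1% of counts. Counts were summed per gene and rounded. Genes passing filterByExpr (14597) were scaled by TMM (0.985 to 1.01) and tested with edgeR 4.0.16 quasi-likelihood without covariates in R 4.3.3. DESeq2 1.42.0 and limma 3.58.1 were alternatives, beside other scalings and filters, a replicate block, removal of GC and length trends, exact version matching and leaving out each library. The code was tested on simulated data. Coding lengths came from GENCODE M21. Intervals for counts of 0 cover counting error only.

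Members and lists were chosen with earlier results of these data known. The naming rule took called members, the highest and lowest estimate of each complex, isoform pairs, subunit c and complex II genes, called genes of other lists, and Ppargc1a, Nrf1, Tfam, Cyc1 and Cycs. Ndufa3, Ndufa6, Cox5a, Atp5b and other members named for their role were chosen after their values were seen. The correlations of same-numbered deviations were -0.078 to 0.1. Differently numbered libraries were not compared, so these values cannot decide whether replicate numbers pair libraries.

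Over all marker lists, edgeR called 3 of 14 tested preadipocyte genes, 0 of 3 adipocyte, 0 of 6 macrophage, 0 of 8 endothelial, 3 of 8 mural, 1 of 2 mesothelial and 1 of 5 skeletal muscle genes. The share called over all tested genes was 4.88%.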

Additional observations from a re-analysis of the deposited data

Results flagged for a closer look

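In 78 groups of 5 libraries, 9 had a library far from the other 4, where chance gives about 3.9 (1 in 20 groups). DMSO replicate 1 was the low library for Uqcrq (66.1 CPM, others 72.5 to 72.9), Atp5g1 (72.2) and Cyc1 (73.4). BPS replicate 1 was the high library for Uqcrfs1 (59.96 CPM), Atp5j (71.3) and Cox7a2 (65.15). BPS replicate 3 was high for Atp5g1 (82.3). The summed level of complex II was high in DMSO replicate 5 (470.9 CPM), and that of complex V was low in BPS replicate 5 (2774).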

How the results depend on the processing

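The count of OXPHOS genes called was 0 in all 22 alternative fits, with lowest adjusted p of 0.0503 to 0.152, and exact version matching tested only 64 of them. Leaving out the Ndufaf assembly factors also gave 0, which was bound to follow from the main fit. Over all genes, 712 were called (447 higher, 265 lower). The split was 334 higher and 394 lower of 728 with library size alone. The replicate block gave 374 calls, 454 with GC and length trends also removed, exact version matching 328, and leaving out 1 library 449 to 774; the cause was not tested. Whether the numbers pair libraries is not known. Among named genes the block changed no call but that of Vdac2. Of 734 values of named genes, 15 reversed, all with estimates near 0 or few counts: Ndufa4 to 0.0081 with GC and length trends removed, 0.0078 with the block added, and -0.0274 to 0.01 leaving out libraries; Cyc1 to -0.001 with library size alone, -0.0021 and -0.0018 with those trends removed without and with the block, and -0.0043 to 0.0188 leaving out libraries. Leaving out a library also gave ranges of -0.2897 to 0.0368 for Ndufa13, -0.0013 to 0.0329 for Cox6a1, -0.0706 to 0.008 for Ndufa4l2, -0.0031 to 0.0336 for Atp5g2, -0.0026 to 0.0247 for Sdhc and -0.2654 to 0.0604 for Ppargc1a. Ndufa13, Cox4i2, Cox7a1 and Ndufaf5 had under 50 counts per library and wide intervals.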
